A study of Mus musculus with 8 samples.

Results

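The cytochrome P450 genes measured in mouse club cells were 92 of the 22180 genes named on the array. They were chosen by symbol: every probe set that the platform annotation gives exactly 1 gene symbol, where that symbol reads Cyp followed by a family number, a subfamily letter and a gene number. Cyp51, a further sterol hydroxylase gene and pseudogenes were left out, and where a gene had several probe sets the brightest on average was used (96 probe sets for 92 genes). Club cells, as the samples are labelled, are secretory cells of the airway epithelium. The samples came from lungs of Atgl KO/cTg mice (16 mice aged 38 to 46 weeks, 4 arrays) and of wt/cTg mice (14 mice aged 41 to 48 weeks, 4 arrays). Atgl is the older name of Pnpla2, adipose triglyceride lipase, the enzyme that opens lipolysis of triglyceride stores. Both genotypes carry cTg, which is not spelled out in the labels. RNA of 3 or 4 untreated mice went onto each array, so a replicate is a pool, the spread is one between pools, and fewer cells of a type and less RNA per cell cannot be told apart.

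P450 enzymes carry a haem bound through a cysteine and use oxygen to add a hydroxyl or epoxide group to small lipophilic molecules. Most sit in the endoplasmic reticulum and take electrons from P450 reductase and cytochrome b5, while a few work in mitochondria with adrenodoxin. Some families clear foreign compounds, others shape fatty acids, eicosanoids, sterols, steroid hormones, vitamin D or retinoic acid. Mouse club cells are the main P450 site of the airway, and their Cyp2f2 activates inhaled naphthalene to the epoxide that injures them.

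The knocked-out gene checked the labels, with Pnpla2 at 6.98 ± 0.20 in the Atgl KO/cTg pools and 8.70 ± 0.11 in the wt/cTg pools (log2 signal, SD, n = 4). Array medians ran from 5.12 to 5.24 and correlations between arrays from 0.965 to 0.985. Defining club cell transcripts were high in both genotypes, with Scgb1a1 at 12.92 and 12.99. Transcripts of other cells were high too, with Sftpc of the alveolar type 2 list at 12.73 and Ighm of the B and T cell list at 12.63 (means of 8 arrays). A P450 signal here is therefore not known to come from club cells alone. The mean of 10 alveolar type 2 markers was 10.10 to 10.36 in the Atgl KO/cTg pools and 10.56 to 11.02 in the wt/cTg pools. All 10 had a log2 difference below 0, and 4 passed the threshold (limma adjusted p under 0.05), against 0.0991% of all genes tested. Of 6 heart muscle markers (6.80 to 7.03 against 7.40 to 7.67) all were below 0 and 2 passed, against 0.0991% of all genes tested. Goblet cell markers (7 of 7) and ciliated cell markers (8 of 8) lay above 0, fibroblast and smooth muscle markers (9 of 9) below 0, and none of these passed. At an unadjusted p under 0.05 there were 5 of 7, 2 of 8 and 4 of 9, against 7.95% of all genes tested. Other lists were mixed: 7 of 8 alveolar type 1, 6 of 8 endothelial, 5 of 7 macrophage and 4 of 6 B and T cell markers lay below 0. None of these passed. Of all genes tested, 47.8% lay above 0. The part of all these cells in the P450 values was not tested. Hepatocyte markers were low, with 2 of 6 above the median of all probe sets. The wt/cTg pool of replicate 4 read 3.75 for Xist, transcribed from the inactive X chromosome, against 9.34 to 10.67 in the other pools. A sex-linked score, Xist minus the mean of the Y-chromosome genes Uty, Kdm5d and Eif2s3y, was -3.24 in that pool and 3.15 to 5.23 in the others. By this score the pool was mainly male and no Atgl KO/cTg pool was, so sex was not balanced between the genotypes. Differences without that pool are given below for many genes.

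The family's signal was concentrated in a few genes. Only 28 of the 92 P450 genes (30.4%) had a mean log2 signal above the median of all probe sets (5.18), against 59.1% of all genes named. Of these 28, 6 reached a mean of 8. Probe sets differ in how strongly they bind, so the order below is one of array signals and not of transcript numbers.

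Cyp2f2, the naphthalene-activating enzyme, led the family on all 8 arrays. Its log2 signal was 12.65, 12.55, 12.64 and 12.70 in the Atgl KO/cTg pools and 12.62, 12.52, 12.55 and 12.59 in the wt/cTg pools, and only 13 of the 22180 genes had a higher mean. Signals this high lie close to the highest value on each array (13.38 to 13.54). Cyp4b1, a lung enzyme that hydroxylates fatty acids and activates furan toxins, ranked second on every array at 9.99, 9.65, 9.87 and 10.18 in the Atgl KO/cTg pools and 9.78, 9.71, 9.997 and 10.11 in the wt/cTg pools. The gap from Cyp2f2 to Cyp4b1 was 2.47 to 2.90 on the log2 scale, wider than the range of either gene across pools.

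Below them came Cyp39a1, an oxysterol hydroxylase of bile acid synthesis (mean log2 signal 8.70), Cyp2b10, the classic target of the xenobiotic receptor CAR (8.56), and Cyp2s1, a P450 of airway and other epithelia (8.49). Cyp39a1 exceeded Cyp2s1 on all 8 arrays, by 0.01 to 0.36. Cyp2b10 had no fixed place between them, since it lay below Cyp39a1 on 6 of 8 arrays and above Cyp2s1 on 5. Cyp4v3, a hydroxylase of medium-chain fatty acids, followed at 8.26, and lay below Cyp2s1 on all 8 arrays. Cyp4a12b (7.84), Cyp2d22 (7.26), Cyp4f15 (7.22), Cyp20a1, an orphan P450 (7.01), Cyp4f18 (6.77) and Cyp2a22 (6.32) completed the 12 highest.

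**Figure D1:**
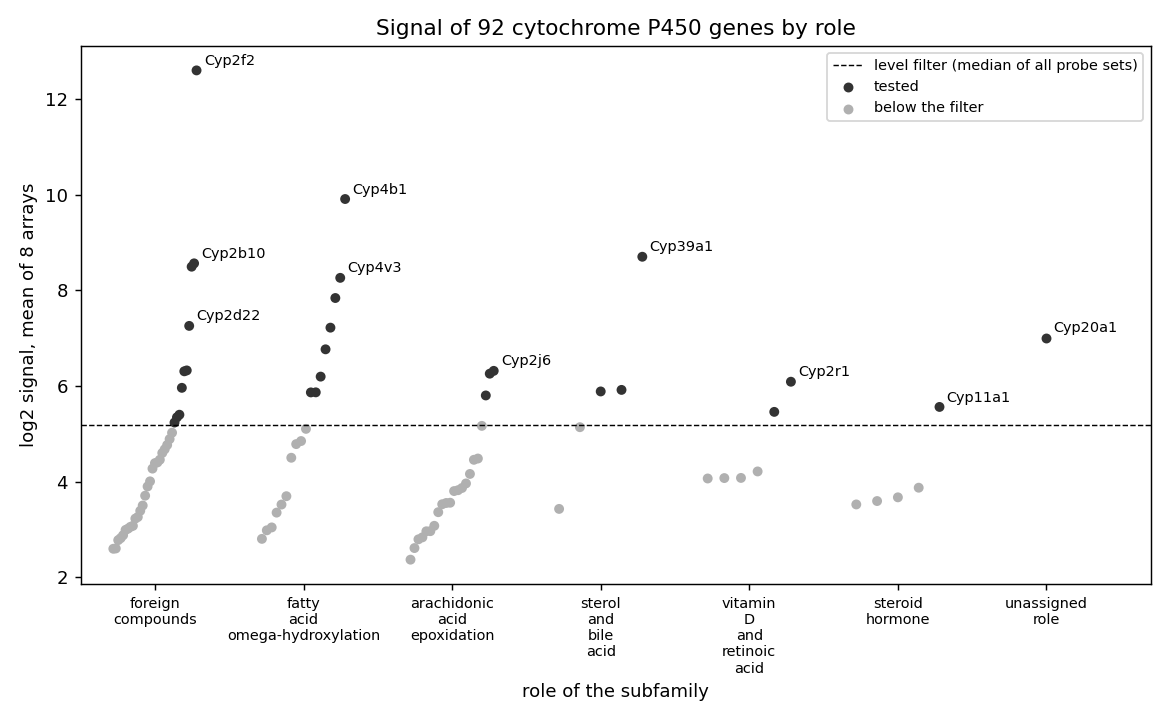
Mean log2 signal over 8 arrays of 92 P450 genes (1 point a gene), grouped by the role of the subfamily; dark points lie above the median of all probe sets (dashed line, 5.18) and were tested, grey points were not. Cyp2f2 (12.60) and Cyp4b1 (9.91) stand above the rest, and most genes of every large group lie under the line. The group labelled arachidonic acid epoxidation holds the Cyp2c, Cyp2j and Cyp2u genes, and the label is not meant for Cyp2u1.

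The groups by role differed in how much of them was measurable. Among subfamilies that handle foreign compounds, 10 of 35 genes lay above the median of all probe sets, led by Cyp2f2. No gene of the 7 in the Cyp3a subfamily, the main drug-metabolising P450s of liver, did so, and its highest was Cyp3a13 at 5.02. Of the fatty acid omega-hydroxylases (Cyp4 family) 8 of 18 genes were above it, 5 of them Cyp4f genes. Of the Cyp2c, Cyp2j and Cyp2u genes, placed together as enzymes that oxidise arachidonic acid, 3 of 22 were above it, among them 1 of 14 Cyp2c genes. Among sterol and bile acid enzymes 3 of 5 were above it (Cyp39a1, Cyp7b1 and Cyp8b1), among vitamin D and retinoic acid enzymes 2 of 6 (Cyp2r1, which makes the circulating form of vitamin D, at 6.09, and Cyp26b1, which degrades retinoic acid, at 5.46), and among steroid hormone enzymes 1 of 5 (Cyp11a1 at 5.56). The remaining 64 genes ranged from 2.37 (Cyp2c40) to 5.16 (Cyp2c55, whose other probe set read 2.81), where signal and background cannot be separated without detection calls.

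High and low P450 genes lay next to each other in the genome. In the gene order of RefSeq (GRCm38.p6), 13 of the P450 genes follow one another on chromosome 7 with at most 5 other protein-coding genes between neighbours. This run holds the highest gene of the family, Cyp2f2, with Cyp2b10 and Cyp2s1, and also Cyp2b19 at 2.99, and 5 of its 13 genes were above the median of all probe sets. On chromosome 4 a run of 8 genes held Cyp4b1 at 9.91 and Cyp4a12a at 2.98. Cyp4a12a and Cyp4a12b (7.84) are close copies by name and neighbours there, so how signal is split between them is uncertain. On chromosome 19, a run of 13 Cyp2c genes held 1 gene above the median.

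To show what precedes the leading genes, the 120 bases before the start of Cyp2f2, chr7:27119835-27119954 (plus strand), and of Cyp4b1, chr4:115647722-115647841 (minus strand), are printed from RefSeq (GRCm38.p6), 5′ to 3′ on the gene's strand. They are set beside Cyp1a1, chr9:57697493-57697612 (plus strand), the textbook target of the aryl hydrocarbon receptor, whose signal was low here.
Cyp2f2: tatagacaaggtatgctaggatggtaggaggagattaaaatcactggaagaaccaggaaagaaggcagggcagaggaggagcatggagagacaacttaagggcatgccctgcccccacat
Cyp4b1: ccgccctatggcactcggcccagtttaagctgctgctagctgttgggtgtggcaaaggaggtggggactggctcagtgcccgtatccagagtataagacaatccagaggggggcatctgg
Cyp1a1: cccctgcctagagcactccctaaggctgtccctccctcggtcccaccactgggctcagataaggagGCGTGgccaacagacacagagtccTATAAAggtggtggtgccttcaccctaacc
Capitals mark motif matches, and 5 motifs were searched on both strands of the 250 bases before the start. TATAAA is the sequence of a TATA box, counted here at any position of the window. TTGCNNAA is bound by C/EBP factors. GCGTG is the core bound by the aryl hydrocarbon receptor. TGTTTNC is a forkhead motif. CTCAAG is bound by NKX2-1. In Cyp1a1 the GCGTG match began 54 bases and the TATAAA match 30 bases before the start, while none of these 5 motifs matched in the 250 bases of Cyp2f2 or Cyp4b1. The table had 78 promoters for 70 of the 92 genes. TATAAA matched in 30.8% of these against 12.4% of all 32851 promoters, TTGCNNAA in 24.4% against 9.56%, GCGTG in 20.5% against 28.2%, TGTTTNC in 15.4% against 17.8% and CTCAAG in 12.8% against 13.3%. Promoters of closely related genes, and several promoters of 1 gene, were counted separately. A match describes letters in this window and is no sign that a factor binds.

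The design asks which transcripts differ in club cells without Atgl. No P450 gene passed the threshold: 0 of 28 had a limma adjusted p under 0.05 (Benjamini-Hochberg over 13112 genes), where 0.0991% of all genes tested did, and the lowest adjusted p in the family was 0.524. At an unadjusted p under 0.05 there were 4 of 28 (14.3%), against 7.95% of all genes tested. Cyp4f16 and Cyp4f15 were the higher ones in Atgl KO/cTg (2 of 28, against 3.39%), and Cyp4v3 and Cyp8b1 the lower ones (2 of 28, against 4.56%). With the run of neighbouring mouse numbers in the sample titles as a block, a grouping that the labels do not name as a set, the count was 0 of 28, against 6.84% of all genes tested. The count also moved with single pools. It was 1 without wt/cTg replicate 3 or 4, and 2 without wt/cTg replicate 2 or Atgl KO/cTg replicate 3 or 4. It was 6 without wt/cTg replicate 1 and stayed at 4 without Atgl KO/cTg replicate 1 or 2. The share of all genes tested also moved, from 5.68% without Atgl KO/cTg replicate 2 to 9.56% without Atgl KO/cTg replicate 4. Over the family 18 differences lay above 0 and 10 below, where 47.8% of all genes tested lay above 0. The family's median was 0.04, against -0.01 for all genes tested.

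The intervals describe differences of array signal. Whether signal still follows transcript at the level of Cyp2f2 was not tested, so its interval is not read as a bound on transcript. All 28 limma 95% intervals lay within -1 to 1 on the log2 scale, and 18 lay within -0.5 to 0.5. They reached from -0.64 at the lowest to 0.74 at the highest, and standard errors ran from 0.05 for Cyp2f2 to 0.23 for Cyp2j6.

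**Figure D2:**
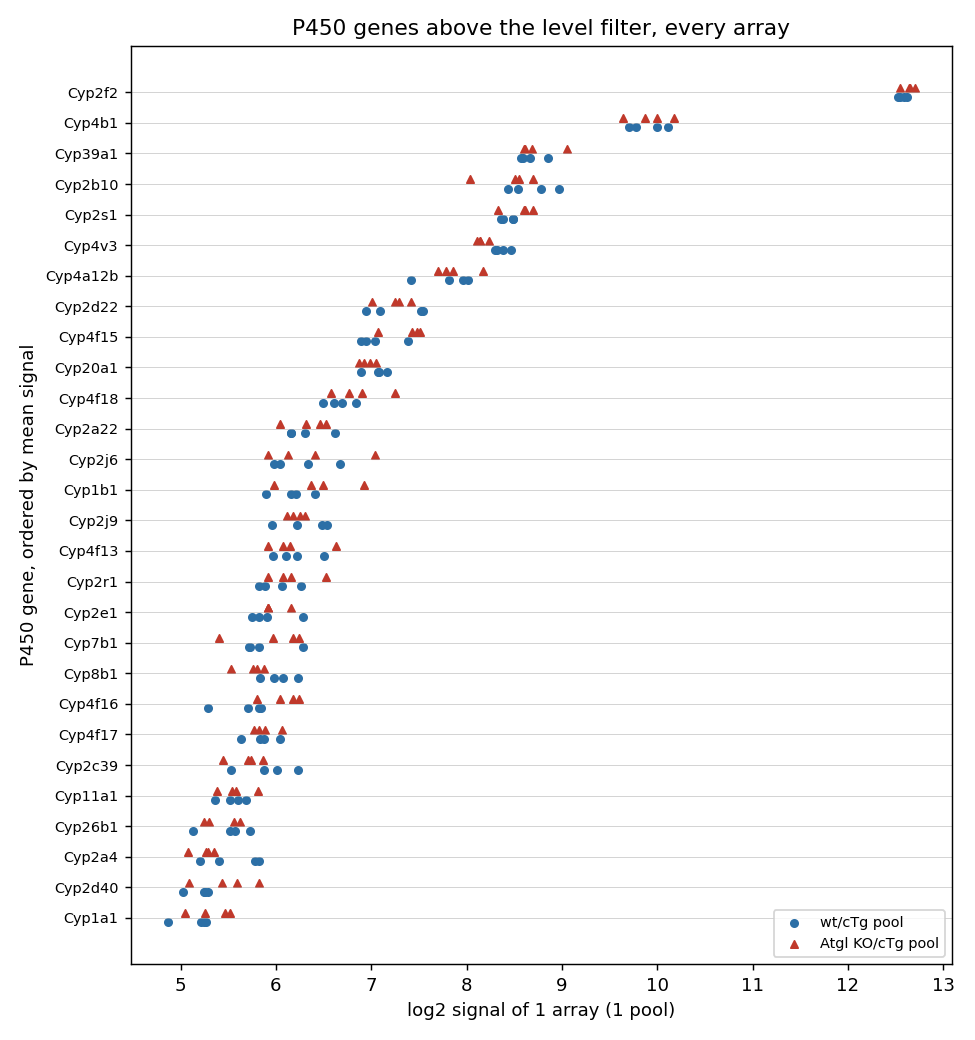
Log2 signal of the 28 P450 genes above the level filter in each of 8 arrays, with blue circles for wt/cTg pools and red triangles for Atgl KO/cTg pools, 4 each, genes ordered by mean. The genotypes overlap for every gene except Cyp4v3, whose 4 Atgl KO/cTg pools (8.11 to 8.23) lie below the 4 wt/cTg pools (8.30 to 8.47).

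Among the enzymes of foreign compounds, none of the 10 tested had an unadjusted p under 0.05. On the probe set kept, Cyp2f2 had a log2 difference of 0.06 (Atgl KO/cTg minus wt/cTg, SE 0.05, 95% interval -0.05 to 0.18, limma adjusted p = 0.798). The pools of the genotypes overlapped.

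A second probe set annotated to Cyp2f2 gave another picture. It read 9.10, 9.34, 9.27 and 9.68 in the Atgl KO/cTg pools and 8.98, 8.92, 8.95 and 8.95 in the wt/cTg pools. Every Atgl KO/cTg pool was above every wt/cTg pool, and the wt/cTg pools lay within a narrow band. The log2 difference was 0.40 (SE 0.11, 95% interval 0.15 to 0.64). Its exact two-sided permutation p of 0.0286 is the smallest that 70 arrangements allow, and groups of 4 without overlap always give it. In a fit of all 13906 probe sets above the median, chosen after these values were seen, its limma unadjusted p was 0.00417 and its adjusted p 0.41, so it did not pass. In that fit 0.036% of all probe sets passed and none of the 29 P450 probe sets did. The second Cyp2f2 probe set was 1 of 3 P450 probe sets higher at an unadjusted p under 0.05, against 3.31% of all, and 1 of 2 without overlap in either direction, against 4.4% of all. Without single arrays the difference ran from 0.29 to 0.48, and it was 0.40 without wt/cTg replicate 4.

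Set against the first probe set on the same array, the second lay at -3.55, -3.21, -3.37 and -3.02 on the log2 scale in the Atgl KO/cTg pools and at -3.64, -3.60, -3.59 and -3.63 in the wt/cTg pools. The distance between both probe sets was thus nearly constant in 1 genotype and smaller, with more spread, in the other.

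What the second Cyp2f2 probe set measures is not settled. Probe set identifiers on this array run in stretches of 1 chromosome and strand. For 95.5% of 18022 probe sets with a known strand, the majority of the 20 nearest such probe sets of other genes shared it. Cyp2f2 lies on the plus strand of chromosome 7. All 20 such probe sets nearest to its second probe set belong to genes on the minus strand of that chromosome. Of the 70 kept P450 probe sets with a known strand, 69 lay in a stretch of their own strand, the exception being Cyp2c55. The kept Cyp2c55 probe set read 5.16, and its other one, in a stretch of its own strand, read 2.81. Whether the signal of the second Cyp2f2 probe set is Cyp2f2 mRNA or RNA of the other strand was not tested. The mean of 10 club cell markers was 11.79 to 11.89 in the Atgl KO/cTg pools and 11.54 to 11.80 in the wt/cTg pools. Of the 10, 7 lay above 0 (median 0.17) and none passed the threshold. At an unadjusted p under 0.05 there were 6 of 10, against 7.95% of all genes tested. Their part in the difference of the second probe set was not tested.

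Cyp2b10 read 8.50, 8.04, 8.55 and 8.70 in the Atgl KO/cTg pools and 8.54, 8.44, 8.78 and 8.97 in the wt/cTg pools. The pools overlapped (log2 difference -0.23, SE 0.15, 95% interval -0.57 to 0.10, limma adjusted p = 0.764), with the lowest value in Atgl KO/cTg replicate 2. The difference was -0.10 without that pool and -0.14 without wt/cTg replicate 4. Cyp2s1 was at 8.56 ± 0.16 and 8.43 ± 0.07 (SD, n = 4), a difference of 0.13 (95% interval -0.07 to 0.34), which was 0.21 without Atgl KO/cTg replicate 1 and 0.09 without replicate 4. Cyp1b1, which oxidises polycyclic hydrocarbons and oestrogens, ran from 5.98 to 6.93 in the Atgl KO/cTg pools and from 5.90 to 6.41 in the wt/cTg pools (difference 0.27, 95% interval -0.14 to 0.68), and the difference was 0.11 without Atgl KO/cTg replicate 4. Cyp1a1 was at 5.32 ± 0.21 and 5.15 ± 0.19 (SD, n = 4), close to the level filter. Cyp2e1, the ethanol-oxidising P450 (0.04), Cyp2d22 (-0.03) and Cyp2a22 (0.02) lay near 0, and the sign of each of the 3 turned in some of the 17 other settings. Without wt/cTg replicate 4 these differences were 0.15, 0.06 and -0.03. Cyp2d40 was at 0.28 (95% interval -0.06 to 0.62), and at 0.17 without Atgl KO/cTg replicate 2.

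Cyp2a4 and Cyp2a5, closely related steroid and coumarin hydroxylases of the chromosome 7 run, both had a difference below 0. Cyp2a5 lay under the level filter and was not in the main test. It read 4.68, 4.58, 4.80 and 4.42 in the Atgl KO/cTg pools and 4.82, 5.80, 5.18 and 4.82 in the wt/cTg pools, so the groups did not overlap, by a margin smaller than the spread within either. Its exact permutation p of 0.0286 follows from the lack of overlap and adds nothing to it. The difference was -0.54, and with no level filter its limma unadjusted p was 0.0216 and its adjusted p 0.656. Cyp2a4 read 5.27, 5.07, 5.28 and 5.35 in the Atgl KO/cTg pools and 5.20, 5.78, 5.82 and 5.41 in the wt/cTg pools, with the 2 highest values in wt/cTg replicates 2 and 3 as for Cyp2a5 and with overlapping groups. The difference was -0.31 (SE 0.15, 95% interval -0.64 to 0.02, limma adjusted p = 0.655). Of the 64 genes under the filter, 3 had groups that did not overlap (Cyp2a5, Cyp2w1 and Cyp2c66), 4.69% against 3.05% of all genes under it. Cyp2w1 was at 4.31 and 4.49 and Cyp2c66 at 2.74 and 2.48 (means in the Atgl KO/cTg and wt/cTg pools), levels at which a measured transcript cannot be told from background. With no level filter, 9 of 92 P450 genes had a limma unadjusted p under 0.05, against 6.66% of all genes. Of those under the filter, Cyp2a5 was lower in Atgl KO/cTg. Cyp2c66, Cyp2j12, Cyp3a44 and Cyp3a11 were higher, with means over 8 arrays of 2.61 to 3.39. Cyp3a13, the highest of its subfamily, ran from 4.80 to 5.39 and from 4.82 to 5.12, with overlapping groups.

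These 2 genes are shown because their starts are near copies, with 245 identical positions in an alignment of 251 over the 250 bases before the start, against 51.0% identity of Cyp2a4 with Cyp2f2. The last 120 bases are chr7:26307072-26307191 (plus strand) and chr7:26835219-26835338 (plus strand), GRCm38.p6.
Cyp2a4: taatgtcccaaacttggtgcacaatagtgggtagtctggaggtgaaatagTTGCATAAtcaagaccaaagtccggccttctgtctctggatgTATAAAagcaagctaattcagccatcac
Cyp2a5: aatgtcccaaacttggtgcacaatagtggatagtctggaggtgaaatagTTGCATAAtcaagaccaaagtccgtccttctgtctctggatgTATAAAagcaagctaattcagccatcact
Capitals mark TTGCNNAA and TATAAA, which began 70 and 28 bases before the start in Cyp2a4 and 71 and 29 in Cyp2a5. Where such copies also share transcript sequence, an array cannot assign the signal to 1 of them with certainty.

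**Figure D3:**
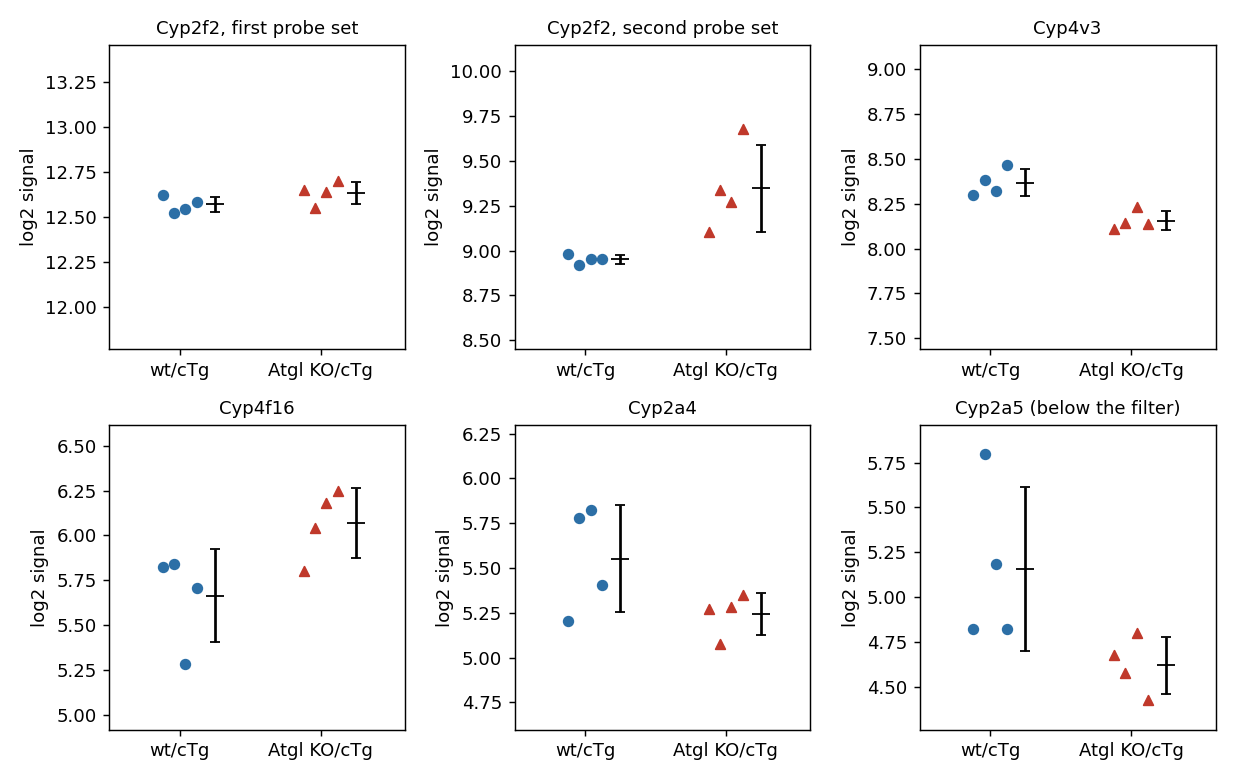
Log2 signal per pool (4 wt/cTg, blue circles; 4 Atgl KO/cTg, red triangles) with mean and SD (black bars) for both Cyp2f2 probe sets, Cyp4v3, Cyp4f16, Cyp2a4 and Cyp2a5; every panel spans the same log2 width and does not start at 0. The first Cyp2f2 probe set differs by 0.06 and the second by 0.40, and Cyp4v3, the second Cyp2f2 probe set and Cyp2a5 show no overlap between genotypes.

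Among the fatty acid omega-hydroxylases, 6 of 8 tested genes lay above 0 (median 0.06), against 47.8% of all genes tested. An unadjusted p under 0.05 was found for 3 of 8, against 7.95% of all genes tested. Of these 3, Cyp4f15 and Cyp4f16 were higher in Atgl KO/cTg and Cyp4v3 was lower. Cyp4v3 was the only tested P450 gene whose groups did not overlap (1 of 28, 3.57%, against 4.35% of all genes tested). By direction, 1 of 28 was lower in Atgl KO/cTg, against 2.62% of all genes tested, and 0 of 28 were higher, against 1.74%. It read 8.11, 8.14, 8.23 and 8.14 in the Atgl KO/cTg pools and 8.30, 8.39, 8.32 and 8.47 in the wt/cTg pools. The exact permutation p of 0.0286 follows from the lack of overlap. Its difference was -0.21 (SE 0.08, 95% interval -0.38 to -0.04, limma unadjusted p = 0.0196, adjusted p = 0.524), a level of 0.864 of the control. It was -0.18 without wt/cTg replicate 4, with no unadjusted p under 0.05. A probe set shared by Klkb1 and Cyp4v3 read 4.74 in the Atgl KO/cTg pools and 4.55 in the wt/cTg pools, under the filter.

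The 120 bases before the start of Cyp4v3, chr8:45333164-45333283 (minus strand), GRCm38.p6, are shown for the gene with separated groups, with its GCGTG match, which began 16 bases before the start, in capitals.
Cyp4v3: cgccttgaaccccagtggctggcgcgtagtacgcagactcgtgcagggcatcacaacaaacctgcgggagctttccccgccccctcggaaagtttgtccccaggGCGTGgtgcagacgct
No TATAAA matched in its 250 bases.

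Cyp4f16 had the largest difference of the 28 genes tested. It read 5.80, 6.04, 6.18 and 6.25 in the Atgl KO/cTg pools and 5.82, 5.84, 5.29 and 5.70 in the wt/cTg pools. Atgl KO/cTg replicates 2, 3 and 4 were above all wt/cTg pools, and replicate 1 lay within their range. The difference was 0.40 (SE 0.15, 95% interval 0.07 to 0.74, limma unadjusted p = 0.0215, adjusted p = 0.524), and 0.42 without wt/cTg replicate 4. The exact permutation p of Cyp4f16 was 0.0857. Cyp4f15 read 7.43, 7.52, 7.07 and 7.48 in the Atgl KO/cTg pools and 7.38, 6.94, 7.04 and 6.89 in the wt/cTg pools, overlapping where Atgl KO/cTg replicate 3 was low and where wt/cTg replicate 1 was high. Its difference was 0.31 (SE 0.14, 95% interval 0.01 to 0.61, limma unadjusted p = 0.0462, adjusted p = 0.616) and 0.25 without wt/cTg replicate 4. The exact permutation p of Cyp4f15 was 0.0571. Both genes belong to a run of 8 Cyp4f genes on chromosome 17, of which 4 were tested, 3 above 0 and 1 below, the others being Cyp4f17 (0.04) and Cyp4f13 (-0.00461).

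Cyp4f18, which lies outside that run and inactivates leukotriene B4 in mouse neutrophils, read 6.91, 7.25, 6.77 and 6.58 in the Atgl KO/cTg pools and 6.84, 6.61, 6.69 and 6.49 in the wt/cTg pools. The groups overlapped (difference 0.22, 95% interval -0.10 to 0.54, limma adjusted p = 0.765), and the difference was 0.095 without Atgl KO/cTg replicate 2 and 0.32 without replicate 4. The mean of 6 neutrophil markers above the filter was 8.66, 8.80, 8.73 and 7.72 in the same Atgl KO/cTg pools and 8.24, 7.94, 7.53 and 7.92 in the wt/cTg pools. All 6 differences lay above 0, none passed the threshold, and 4 had an unadjusted p under 0.05, against 7.95% of all genes tested. In Atgl KO/cTg, replicate 2 was the highest and replicate 4 the lowest for Cyp4f18 and for the neutrophil mean. Replicates 1 and 3 changed places between them. In wt/cTg, replicate 1 was the highest for both, while the lowest was replicate 4 for Cyp4f18 and replicate 3 for the neutrophil mean. The part of neutrophil RNA in the Cyp4f18 signal was not tested.

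Cyp4b1 differed by 0.02 (SE 0.12, 95% interval -0.24 to 0.29), with pools of both genotypes between 9.65 and 10.18, and its sign turned in 5 of 17 other settings (0.09 without wt/cTg replicate 4). Cyp4a12b was at 0.07 (95% interval -0.25 to 0.40), with its lowest value, 7.42, in wt/cTg replicate 4. Without that pool the difference was -0.05.

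**Figure D4:**
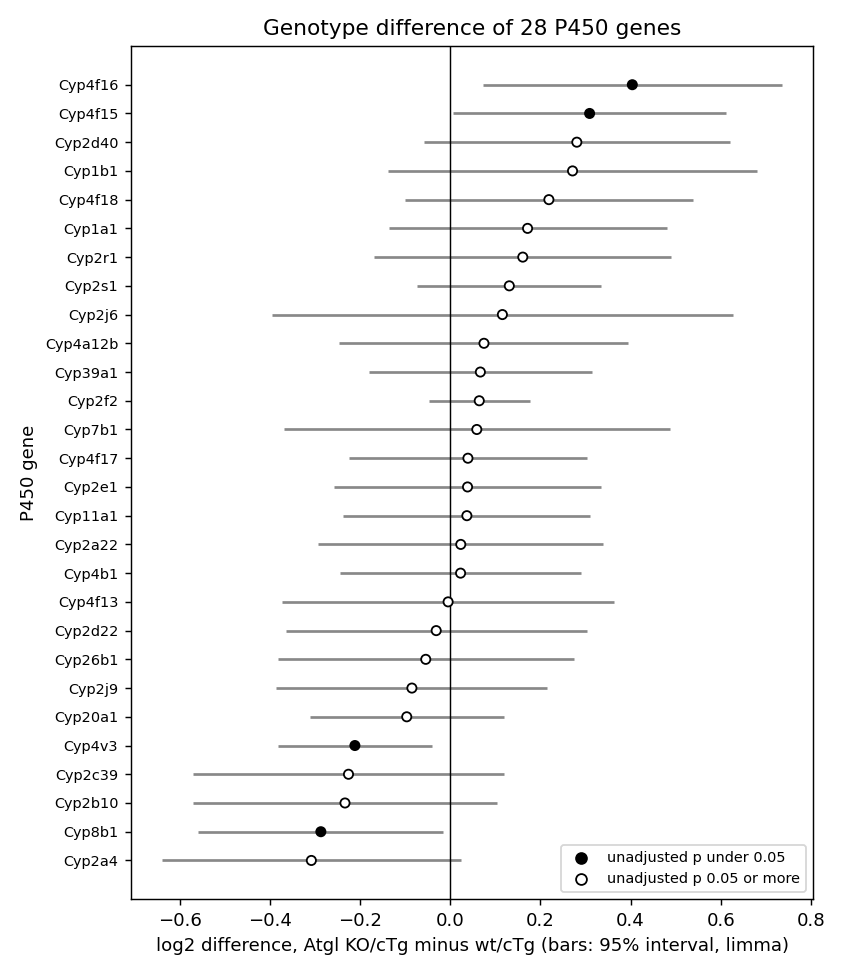
Log2 difference (Atgl KO/cTg minus wt/cTg) of the 28 P450 genes tested, with the limma 95% interval as a bar; filled points have an unadjusted p under 0.05. The 4 filled points are Cyp4f16 (0.40), Cyp4f15 (0.31), Cyp4v3 (-0.21) and Cyp8b1 (-0.29), and none passed after adjustment.

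Among sterol and bile acid enzymes, Cyp8b1, which sets the hydroxylation of bile acids in liver, read 5.80, 5.88, 5.76 and 5.53 in the Atgl KO/cTg pools and 5.83, 6.23, 6.07 and 5.98 in the wt/cTg pools. The groups overlapped at wt/cTg replicate 1 (difference -0.29, SE 0.12, 95% interval -0.56 to -0.02, limma unadjusted p = 0.0403, adjusted p = 0.601), and without wt/cTg replicate 4 the difference was -0.30. The exact permutation p of Cyp8b1 was 0.0571. Cyp39a1 was at 0.07 (95% interval -0.18 to 0.31), its highest pool being Atgl KO/cTg replicate 4 at 9.05. Cyp7b1, an oxysterol hydroxylase, was at 0.06 with an interval of -0.37 to 0.49, and ran from 5.40 to 6.28 across the pools. Without Atgl KO/cTg replicate 1 it was at 0.24, and its sign turned in 3 of 17 other settings.

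Of the epoxygenases, Cyp2j6 varied most of all P450 genes tested (SD 0.39 over 8 arrays). It read 5.92, 6.41, 6.13 and 7.04 in the Atgl KO/cTg pools and 6.67, 6.04, 5.98 and 6.34 in the wt/cTg pools, so both genotypes held high and low pools (difference 0.12, 95% interval -0.39 to 0.63). Without Atgl KO/cTg replicate 4 the difference was -0.11. Next in spread were Cyp1b1 (0.32), Cyp7b1 (0.31) and Cyp4f16 (0.30). Cyp2j9 was at -0.08 and Cyp2c39 at -0.23, with 95% intervals of -0.39 to 0.22 and -0.57 to 0.12. Without wt/cTg replicate 4 they were at -0.00476 and -0.12. Cyp20a1 was at -0.10 (-0.31 to 0.12) and Cyp26b1 at -0.05 (-0.38 to 0.27). Cyp2r1 was at 0.16 (-0.17 to 0.49) and Cyp11a1, which cuts the side chain of cholesterol, at 0.04 (-0.24 to 0.31).

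No tested transcript of the proteins that supply P450 enzymes with electrons and haem passed either. Of the electron donor list 8 of 13 symbols were tested, 4 above 0 and 4 below, with 0 past the adjusted threshold (0.0991% of all genes tested). At an unadjusted p under 0.05 there were 2 of 8 (7.95% of all genes tested). Pgrmc2, a haem-binding membrane protein, read 8.47, 8.65, 8.41 and 8.69 in the Atgl KO/cTg pools and 8.41, 7.97, 7.88 and 7.83 in the wt/cTg pools, a difference of 0.53 (SE 0.13, limma adjusted p = 0.304), with the groups touching at wt/cTg replicate 1. Cyb5b, the cytochrome b5 of the mitochondrial outer membrane, read 7.33, 7.52, 7.45 and 7.64 in the Atgl KO/cTg pools and 7.70, 7.87, 7.73 and 7.84 in the wt/cTg pools. Its groups did not overlap (difference -0.30, SE 0.10, limma adjusted p = 0.446). Cyb5r3, cytochrome b5 reductase, was at 0.05 and Cyb5a, the cytochrome b5 of the endoplasmic reticulum, was at -0.00226. P450 reductase, Fdxr (adrenodoxin reductase) and Fdx2, listed also as Fdx1l, had no probe set with 1 symbol and are not analysed here.

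In the haem list 11 of 12 genes were tested, 6 above 0 and 5 below, 0 past the adjusted threshold and 2 of 11 at an unadjusted p under 0.05, against 7.95% of all genes tested. Alas1, the first and rate-limiting enzyme of haem synthesis, read 10.41, 10.59, 10.63 and 10.76 in the Atgl KO/cTg pools and 10.23, 10.17, 10.50 and 10.26 in the wt/cTg pools. The groups overlapped through wt/cTg replicate 3 (difference 0.31, SE 0.09, limma adjusted p = 0.435). Blvra, biliverdin reductase, was at 0.25 (limma adjusted p = 0.524), and Fech, which inserts the iron, at -0.12.

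Of 20 transcriptional regulators of P450 genes 14 were tested, 6 above 0 and 8 below, 0 past the adjusted threshold and 3 of 14 at an unadjusted p under 0.05, against 7.95% of all genes tested. These were Foxa1, a forkhead factor of airway epithelium (0.32, limma adjusted p = 0.524), Ahr, the aryl hydrocarbon receptor (0.25, 0.561), and Nr3c1, the glucocorticoid receptor (-0.20, 0.615). Nr1i2 and Nr1i3, the receptors PXR and CAR, lay under the level filter at 4.80 and 4.44. Of 4 epoxide hydrolases, which open the epoxides that P450 enzymes make, 2 were tested: Ephx1 was at 0.03 and Ephx2 at -0.12.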

How the data were processed

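The 8 arrays, 4 per genotype, were grouped by the genotype label, and replicate numbers, given in sample order, pair no arrays. The labels' protocols describe on-column DNase treatment during RNA extraction, whole-transcriptome amplification with a NuGEN Ovation Pico kit and a biotin label. The authors deposited 1 log2 signal per probe set and array (1.85 to 13.54), which was used unaltered. Its scale follows from the values, and the normalization method is not given in the labels. Precision is limited by the number of arrays.

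Genes with a mean above the median of all probe sets (5.18) were tested, 13112 of 22180. The genotype difference was fitted in limma 3.58.1 (R 4.3.3; lmFit, then eBayes with a variance trend), two-sided, with Benjamini-Hochberg adjustment over all genes tested and a threshold of 0.05. Exact two-sided permutation tests over the 70 arrangements were added for single genes. The fit was tested on simulated data. The P450 genes named were the 12 highest, up to 8 per direction by smallest p, those with groups that did not overlap, the 6 most variable, and those known from lung (26 in all); from each pathway list, genes that passed or else the 3 of smallest p were named. Others are named for their genome neighbourhood or were chosen after their values were seen. The P450 genes and all lists were chosen with earlier results of these data known. Promoters and gene order are RefSeq's (GRCm38.p6), with 91 of 92 names in its gene table. Figures were drawn with matplotlib 3.10.9.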

Additional observations from a re-analysis of the deposited data

Results flagged for a closer look

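Among 52 groups of 4 pools (26 named P450 genes in each genotype), 2 held 1 pool far from the other 3; chance alone sets about 1 in 20 groups apart. Cyp1a1 read 4.87 in wt/cTg replicate 1, against 5.22 to 5.26 in the other wt/cTg pools. Cyp2e1 read 6.16 in Atgl KO/cTg replicate 2, against 5.91 to 5.92 in the other Atgl KO/cTg pools.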

How the results depend on the processing

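The labels give no replicate numbers, so arrays were blocked only by runs of neighbouring mouse numbers, of which 3 hold both genotypes. In none of 17 other settings (no level filter, no variance trend, quantile normalization, median centring, array weights, means of probe sets, age, a sex-linked score or a run of mouse numbers in the model, and 8 fits lacking 1 array) did a P450 gene pass limma's adjusted threshold. The count at an unadjusted p under 0.05 was 9 of 92 with no level filter, against 6.66% of all genes tested. It was 0 of 28 with the run of mouse numbers as a block, against 6.84%. In the fits lacking 1 array it was between 1 and 6, against 5.68% to 9.56%, and the cause was not tested. The family's median difference stayed between 0.00647 and 0.0858. Cyp4v3 kept its direction in all 17 settings and an unadjusted p under 0.05 in 15, Cyp4f16 in 13, Cyp8b1 in 9 and Cyp4f15 in 7. With the mean of both probe sets, Cyp2f2 differed by 0.23 (limma adjusted p = 0.434). Genes passing over the whole array numbered 13, from 1 to 25 in other settings.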
